A study of Mus musculus with 45 samples.

Results

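The genes described here are 8 genes of LIF and STAT3 signalling, taken by symbol from the 55385 genes of each table: the ligand gene Lif, the receptor genes Lifr and Il6st, the kinase gene Jak1, the transcription factor gene Stat3, the inhibitor gene Socs3, and Pim1 and Pim3, kinase genes induced by STAT3. All 8 were listed in all 18 RNA-seq libraries. At least 1 count was found for 7 or 8 of them in every library. The libraries came from mouse embryos and embryonic stem cells in which both copies of Gabpa, the gene of an ETS family transcription factor, carry an FKBP-HA degradation tag (Gabpa-dTAG/dTAG). dTAG13 removes the tagged protein, and the comparison was with the solvent DMSO. The controls carried the same tag, so the tag is common to both sides of each comparison. Embryos were made by in vitro fertilisation from mice that descend from founders crossed to C57BL/6J, and were cultured in KSOM. Late two-cell embryos (3 DMSO and 3 dTAG13 libraries) received 1 µM dTAG13 from 6 to 30 h post fertilisation. Morulae (2 and 2) were treated at the same dose from 42 h post fertilisation on. The E4.5 ICM (2 and 2), the inner cells left after immunosurgery had removed the trophectoderm, was treated from 84 to 100 h post fertilisation. The 2iES cells (2 and 2) are ES-E14 cells, a mouse embryonic stem cell line, cloned from single tagged cells and treated with 0.5 µM dTAG13 for 24 h. They grew with inhibitors of MEK and GSK3, serum and added LIF protein, whereas no LIF is named for the embryo medium. Dose, time and culture thus differed between stages. Labels do not say whether replicates came from separate matings or cultures, so p-values measure the spread between these libraries only.

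LIF is a secreted cytokine of the interleukin family that shares the receptor chain gp130, the product of Il6st. LIF joins LIFR and gp130 into 1 receptor, the bound Janus kinases (JAK1 foremost) phosphorylate the chains and STAT3, and STAT3 dimers enter the nucleus and bind DNA. SOCS3 is made in response and shuts the receptor off. In mouse embryonic stem cells, this pathway sustains self-renewal, and in the blastocyst the trophectoderm is known as a source of LIF while the inner cells carry its receptor.

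The promoters of the 8 genes were searched because GABPA binds the ETS core and STAT3 a palindrome. In RefSeq promoter windows of GRCm38.p6 (250 bases before and 50 after a start site, 10 windows for the 8 genes), CCGGAAG was in none of the 8 genes. Its short form CGGAAG was in 3 (Lif, Jak1 and Pim3), and TTCNNNGAA in 1 (Socs3). The narrower palindromes TTCCNNGAA and TTCCNGGAA were in none. Both strands were read. CGGAAG includes every CCGGAAG by its letters, and TTCNNNGAA includes both narrower forms. Of all 27025 genes in the table, counted by symbol in the same way, 9.93% held CCGGAAG in a window, 18.8% CGGAAG, 9.55% TTCNNNGAA, 5.6% TTCCNNGAA and 1.35% TTCCNGGAA. Of its 32851 windows, the shares were 8.86%, 16.9%, 8.3%, 4.81% and 1.15% in the same order. The upstream stretches with a match are shown 5′ to 3′ on the strand of the gene, cut where an annotated exon begins, with the match in capitals, so that the letters can be read beside the changes of these 4 genes. They lie at chr11:4257318-4257556 (plus strand) for Lif, chr4:101265283-101265473 (minus) for Jak1, chr15:88861944-88862185 (plus) for Pim3 and chr11:117969452-117969616 (minus) for Socs3.
Lif: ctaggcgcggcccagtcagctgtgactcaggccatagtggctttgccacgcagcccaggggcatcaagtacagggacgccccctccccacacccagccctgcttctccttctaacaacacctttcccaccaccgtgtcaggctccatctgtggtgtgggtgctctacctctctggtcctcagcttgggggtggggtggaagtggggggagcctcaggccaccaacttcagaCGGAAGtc
Jak1: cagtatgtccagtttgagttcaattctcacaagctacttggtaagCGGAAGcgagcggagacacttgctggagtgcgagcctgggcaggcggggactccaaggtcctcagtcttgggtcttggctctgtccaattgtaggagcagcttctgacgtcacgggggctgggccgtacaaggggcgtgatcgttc
Pim3: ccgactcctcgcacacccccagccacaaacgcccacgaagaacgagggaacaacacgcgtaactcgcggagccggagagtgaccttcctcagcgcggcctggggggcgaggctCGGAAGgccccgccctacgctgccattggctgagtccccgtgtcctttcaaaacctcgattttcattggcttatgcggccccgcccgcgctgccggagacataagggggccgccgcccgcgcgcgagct
Socs3: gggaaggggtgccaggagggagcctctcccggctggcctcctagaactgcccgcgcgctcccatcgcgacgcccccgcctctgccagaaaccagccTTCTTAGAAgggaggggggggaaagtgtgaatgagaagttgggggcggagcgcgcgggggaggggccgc
The matched CGGAAG begins 19 bases before the start site in Lif, 205 in Jak1 and 137 in Pim3, each on the strand of the gene. The Socs3 match begins 154 bases before the start, in a stretch that lies within the span of the GENCODE gene but outside its exons. A match shows that these letters are present, and binding was not analysed here.

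In GENCODE M21 on GRCm38, Lif lies on chromosome 11 (4257557 to 4272514), Lifr on 15 (7090614 to 7197489), Il6st on 13 (112464070 to 112510086), Jak1 on 4 (101152367 to 101265282), Stat3 on 11 (100885098 to 100939540), Socs3 on 11 (117966079 to 117970047), Pim1 on 17 (29490753 to 29496112) and Pim3 on 15 (88862186 to 88865726). Of the exonic bases of Pim1, 14.515% are shared with the antisense gene Gm26885. The library kit does not keep strand, so reads there could belong to either, and Pim1 values are uncertain by an amount that was not measured. The other 7 shared at most 0.756% of exonic bases with another gene. The number of annotated transcripts was 3 for Lif, 8 for Lifr, 10 for Il6st, 8 for Jak1, 14 for Stat3, 3 for Socs3, 7 for Pim1 and 2 for Pim3.

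Expected counts summed to between 9457933 and 27660132 a library, with the morulae lowest (9457933 to 12382705). Gabpa mRNA, whose protein is what dTAG13 removes, was higher by counts in each dTAG13 library than in any DMSO library of its stage, and passed the test in all stages but the morula (adjusted p = 0.15), so mRNA does not check the degradation. Its TPM (a level per transcript length, scaled to the same total in each library) in 2iES cells was 7.37 and 5.76 for DMSO against 11.32 and 11.14 for dTAG13. The stages carried their markers. The 10 late two-cell markers summed to between 664 and 1040 TPM in late two-cell libraries and to at most 137 elsewhere. The 12 EPI (epiblast) markers summed to at least 512 TPM in the E4.5 ICM and 2iES libraries and to at most 339 in earlier ones. One library stood apart. In late two-cell dTAG13 replicate 1, 10 leukocyte markers summed to 383 TPM (Lyz2 205, Fcer1g 61.9, Tyrobp 55.7) against 28.2 to 35.4 in the other 5, and the acute phase gene Saa3 stood at 439.74 TPM. Late two-cell results are therefore given with and without it.

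In control embryos and cells, the ligand gene was low at every stage and the receptor genes were highest in the ICM. Lif stood at 0.00, 0.08 and 0.20 TPM in late two-cell embryos, 0.77 and 1.22 in morulae, 0.81 and 0.62 in the ICM and 0.53 and 0.22 in 2iES cells. The earliest stage was lowest and the later stages lay close together, within 0.22 to 1.22 TPM. The step into the morula passed edgeR's quasi-likelihood test (log2 change 3.44 ± 0.78 SE, adjusted p = 0.0019). Its size was loose, with a log2 change of 2.85 to 4.58 when 1 library was left out.

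Lifr, which binds LIF directly, was at 0.62 to 0.84 TPM in late two-cell embryos, 0.06 and 0.04 in morulae, 17.23 and 19.30 in the ICM and 1.84 and 1.82 in 2iES cells. Il6st, the shared signalling chain, was at 1.72 to 3.39, then 0.30 and 0.02, then 4.62 and 4.03, then 0.59 and 0.72 TPM. For both genes the ICM libraries were the highest and the morulae the lowest, and no library of these 2 stages overlapped another stage. From morula to ICM, counts of Lifr rose 265-fold (log2 change 8.05 ± 0.41 SE, adjusted p = 5.9e-08) and those of Il6st 31.5-fold (4.98 ± 0.56, adjusted p = 2.1e-05) by edgeR's quasi-likelihood test. The morula base was only 4 and 5 counts of Lifr and 16 and 2 of Il6st, so the size of these folds is loose. From ICM to 2iES cells, Lifr fell by 3.16 on the log2 scale (adjusted p = 4.9e-06) and Il6st by 1.99 (adjusted p = 0.0027). From late two-cell embryos to morulae, Lifr fell by 2.92 (adjusted p = 9.7e-05) and Il6st by 3.85 (adjusted p = 4.0e-05). The size for Il6st is loose here too, with a log2 change of -6.07 without morula DMSO replicate 1 and -2.95 without replicate 2.

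Jak1, the receptor-bound kinase, varied least over the control libraries, with 8.07 to 13.41 TPM in late two-cell embryos, 8.45 and 9.36 in morulae, 10.10 and 7.88 in the ICM and 15.90 and 11.63 in 2iES cells. The embryo stages overlapped, and both 2iES libraries lay above both ICM libraries. Its tests depended on the scale. Counts rose by a log2 change of 0.73 from late two-cell to morula (adjusted p = 0.003) where mean TPM moved by -0.17. Jak1's effective length, the mean length of its transcripts weighted by their shares in a library, was 2399 to 2995 bases in late two-cell embryos, 4027 and 4083 in morulae, 3994 and 4470 in the ICM and 1657 and 1993 in 2iES cells. With that length as an offset in the same fit, an alternative chosen after seeing the data, the step to the morula was 0.18 (adjusted p = 0.52). The step from ICM to 2iES cells went from 0.00 (adjusted p = 1) to 1.15 (adjusted p = 0.0049).

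Stat3 was at 1.87 to 3.20 TPM in late two-cell embryos, 4.70 and 4.09 in morulae, 16.88 and 14.70 in the ICM and 3.12 and 2.51 in 2iES cells. The ICM stood above every other stage, and late two-cell and 2iES values overlapped. The steps passed the test in both directions, with log2 changes of 1.33 into the morula (adjusted p = 3.7e-05), 1.21 into the ICM (adjusted p = 3.8e-04) and -1.38 into 2iES cells (adjusted p = 1.7e-04).

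The feedback and target genes did not share 1 pattern. Socs3 was at 4.32 to 5.85 TPM in late two-cell embryos, 0.43 and 0.45 in morulae, 1.96 and 2.05 in the ICM and 1.25 and 1.33 in 2iES cells. It fell by 3.19 on the log2 scale into the morula (adjusted p = 2.4e-06) and rose by 1.81 into the ICM (adjusted p = 9.1e-04), and the step to 2iES cells was -0.02 (interval -0.64 to 0.60). Pim1 was highest early, at 8.15 to 13.51 TPM in late two-cell embryos and 11.70 and 6.46 in morulae, against 3.89 and 4.72 in the ICM and 2.05 and 2.45 in 2iES cells. Its fall into the ICM passed the test (log2 change -1.21, adjusted p = 0.01) but not without morula DMSO replicate 1 (-0.72, adjusted p = 0.13) or ICM DMSO replicate 2 (-1.25, adjusted p = 0.057). Pim3 was at 15.09 to 18.40, then 6.50 and 7.90, then 23.48 and 21.84, then 10.03 and 7.76 TPM. It fell into the morula by 0.55 (adjusted p = 0.024), which did not pass without late two-cell DMSO replicate 3 (adjusted p = 0.06) or morula DMSO replicate 2 (adjusted p = 0.12), with upper-quartile scaling (adjusted p = 0.097) or with only the 2 stages fitted (adjusted p = 0.083). It rose into the ICM by 1.46 (adjusted p = 1.5e-04) and fell by 0.87 into 2iES cells (adjusted p = 0.0045).

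In all, 7 of the 8 genes passed the test from late two-cell to morula, where 69.3% of all genes tested did (4 of 8 called, background 50.3%), 7 of 8 from morula to ICM (background 45.7%) and 4 of 8 from ICM to 2iES cells (42.6%). Of those 7 into the ICM, Lif was the weakest (-2.22, adjusted p = 0.047) and did not pass when any 1 morula or ICM library was left out. With the length offset, the change of Lif into the ICM was -0.79 (adjusted p = 0.49). Adjacent steps share a stage's controls. Stage, mix of cell types, culture and library preparation cannot be told apart in these steps. The 12 primitive endoderm markers, for instance, summed to 706 and 713 TPM in the control ICM and to 6.53 and 4.29 in control 2iES cells. The part of the cell mix in these steps was not tested.

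**Figure D1:**
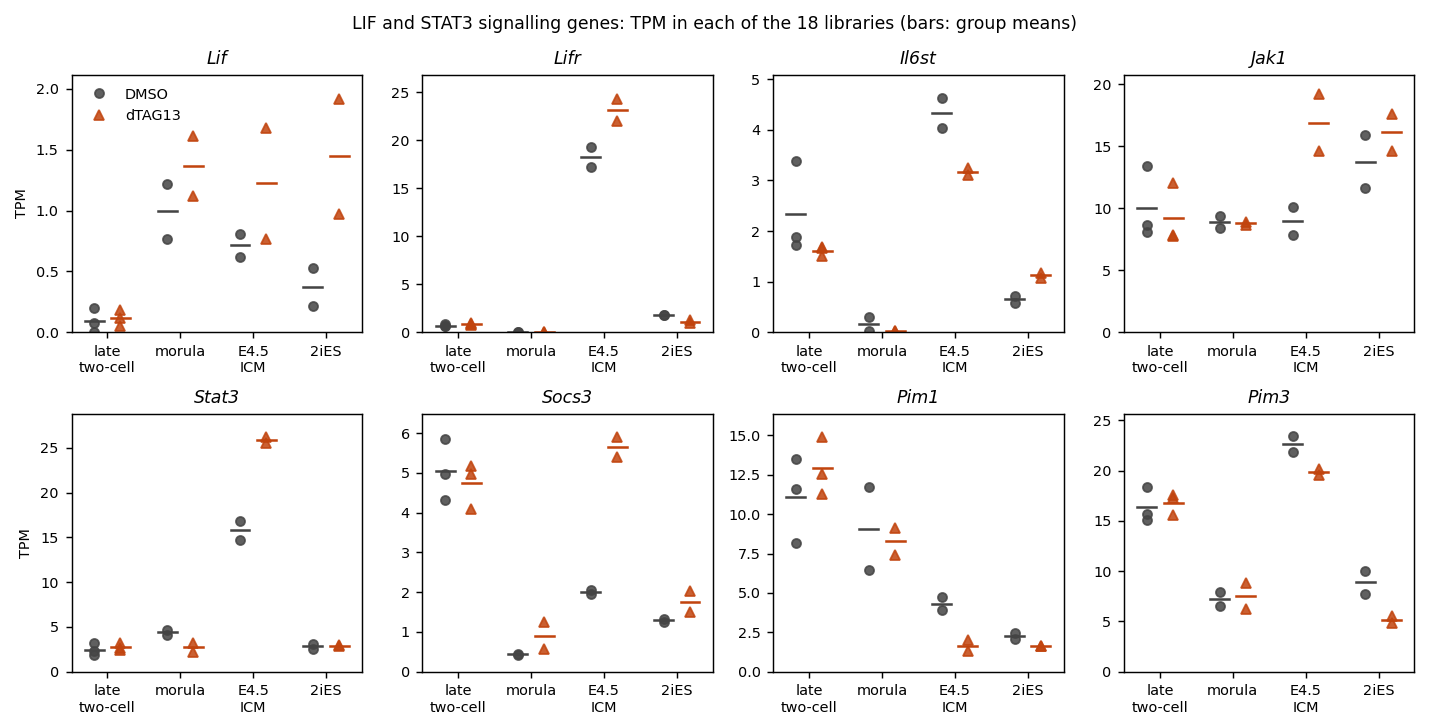
TPM of each gene (vertical axis, linear, its own range per panel) in each library by stage, with DMSO as circles, dTAG13 as triangles and horizontal bars for group means. Lifr and Stat3 stand highest in the E4.5 ICM, where Lifr is at 17.23 and 19.30 with DMSO and 22.03 and 24.33 with dTAG13.

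None of the genes tested passed with dTAG13 in late two-cell embryos or morulae. In late two-cell embryos 0 of 8 passed, where 8.56% of all genes did. None of the 8 reached an unadjusted p under 0.05 either, where 3706 of all 17421 genes tested did, and DESeq2 called 0. Without dTAG13 replicate 1, the library with leukocyte markers, the count was again 0. The intervals of the log2 change were widest for Lif (-2.12 to 2.50, on 0 to 18 counts a library) and narrow for Jak1 (-0.44 to 0.39) and Pim3 (-0.33 to 0.47). Socs3, at 4.08 to 5.18 TPM with dTAG13 and 4.32 to 5.85 with DMSO, had an interval of -0.66 to 0.25. In morulae 0 of the 6 genes tested passed (background 0.366%), and DESeq2 called 0 as well. Lifr (4, 5, 1 and 0 counts) and Il6st (16, 2, 3 and 2 counts) did not reach 10 counts in 2 libraries, and no fold is given for them. Of the 6, Stat3 alone had an unadjusted p under 0.05, where 1854 of all 13667 genes tested did. Stat3 stood at 4.70 and 4.09 TPM with DMSO and 2.24 and 3.18 with dTAG13, with a log2 change of -0.60 (adjusted p = 0.37). Socs3 stood at 0.43 and 0.45 TPM against 1.24 and 0.56, a log2 change of 1.01 whose interval ran from -0.23 to 2.26.

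In the E4.5 ICM, the ligand, kinase, STAT3 and SOCS3 genes were higher by counts with dTAG13 and both receptor genes and both PIM genes lower. Lif, Socs3 and Pim1 moved by more than 2-fold, and the other 5 by between 1.18-fold and 1.7-fold. All 8 of 8 had an adjusted p under 0.05, 4 higher and 4 lower, against a background of 76.9% (38.4% higher and 38.5% lower), and 3 of 8 were called at a fold of 2 and an FPKM of 1 (background 25.3%). ICM libraries of a group differed little from each other, with a biological coefficient of variation of 0.0237 where the other stages had 0.159 to 0.284. Small changes pass easily at such a spread. In a fit over all 18 libraries, which share 1 estimate of the spread, 4 of 8 passed (Lif, Jak1, Socs3 and Pim1). The share of all genes that passed in that fit is not given here, so this count does not set the 4 apart from other genes.

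Lif was read with 21 and 17 counts with DMSO and 60 and 96 with dTAG13. The groups did not overlap, and the fold was 4.21 (log2 change 2.07 ± 0.29, interval 1.49 to 2.66, adjusted p = 4.9e-08). In TPM, the same libraries stood at 0.81 and 0.62 against 0.77 and 1.68, which overlap. The effective length of Lif went from 1133 and 1323 bases to 3852 and 2776. With length as an offset, the log2 change was 0.70 (adjusted p = 0.17), so the rise in counts was not a rise per length that passed the test. The annotated Lif transcripts are 4026, 3798 and 390 bases long.

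Lifr was read with 2655 and 2437 counts with DMSO and 2085 and 2094 with dTAG13, and its log2 change was -0.24 ± 0.04 (adjusted p = 8.3e-07). Its TPM went the other way, from 17.23 and 19.30 to 22.03 and 24.33, again with no overlap. Effective lengths of 6763 and 6098 bases with DMSO stood against 4700 and 4180 with dTAG13. With the length offset the change was 0.29 (adjusted p = 0.0022). The direction of Lifr in the ICM thus turned with the scale, and what the data show without that choice is fewer reads spread over shorter transcripts on average. Its 8 annotated transcripts run from 299 to 9655 bases, and values per transcript were not analysed here.

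Il6st fell on both scales, from 4.62 and 4.03 TPM to 3.24 and 3.11, with a log2 change in counts of -0.52 ± 0.08 (adjusted p = 2.1e-07). Its effective length, 5951 and 7116 bases against 6296 and 6410, overlapped between the groups.

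Jak1 rose on both scales. Its TPM went from 10.10 and 7.88 to 14.59 and 19.22, and the log2 change in counts was 0.77 ± 0.06 (adjusted p = 2.7e-14). Stat3, at 16.88 and 14.70 TPM with DMSO and 26.22 and 25.55 with dTAG13, had a log2 change of 0.39 ± 0.05 in counts (adjusted p = 3.3e-09) and of 0.66 with the length offset (adjusted p = 4.5e-05).

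Socs3, the inhibitor, rose at an effective length that stayed within 2375 to 2389 bases. It stood at 1.96 and 2.05 TPM with DMSO and 5.39 and 5.90 with dTAG13, a fold of 2.73 (log2 change 1.45 ± 0.14, adjusted p = 8.6e-12). Pim1 fell from 3.89 and 4.72 TPM to 2.00 and 1.29, a fold of 3.39 by counts (log2 change -1.76 ± 0.18, adjusted p = 6.9e-11) and -1.46 with the length offset (adjusted p = 4.7e-04). Pim3 fell slightly, from 23.48 and 21.84 TPM to 20.17 and 19.57 (log2 change -0.31 ± 0.07, adjusted p = 9.3e-05). Socs3 and Pim1, both known STAT3 targets, moved in opposite directions in the same 4 libraries.

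Markers of the cell types of the blastocyst moved with these results. All 12 TE (trophectoderm) markers rose with dTAG13, and their sum went from 172 and 180 TPM to 1110 in both libraries, with Krt18 at 475.53 and 480.99 TPM against 22.75 and 24.90. Of 12 PrE (primitive endoderm) markers, 9 rose and 2 fell, with sums of 706 and 713 against 1350 and 1370 TPM. All 12 EPI markers fell, with sums of 1190 and 1230 against 638 and 630 TPM. In such bulk libraries, a change in the share of a cell type and a change of RNA per cell cannot be told apart. The part of these markers in the changes of the 8 genes was not tested.

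In 2iES cells, 3 of the 8 genes passed the test with dTAG13, against a background of 54.6% (26.5% higher and 28.1% lower). Lif and Jak1 rose and Pim3 fell, the same direction each had in the ICM. Only Lif was called at a fold of 2 (1 of 8, background 28%). The TE markers summed to 198 and 175 TPM with DMSO and 225 and 213 with dTAG13, and PrE markers to between 4.29 and 7.75, of which 5 of the 8 tested rose. EPI markers summed to 934 and 935 against 549 and 512 TPM. Their part in the changes of the 8 genes was not tested.

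Lif was read with 33 and 28 counts with DMSO and 104 and 117 with dTAG13, or 0.53 and 0.22 against 0.97 and 1.92 TPM. The groups did not overlap on either scale. The fold was 4.34 (log2 change 2.12 ± 0.29, interval 1.42 to 2.82, adjusted p = 0.0013) and the log2 change with the length offset 2.07 (adjusted p = 0.013). Lif was thus the gene of the 8 with the largest change by counts in 2iES cells, at a level that stayed under 2 TPM.

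The receptor genes did not pass by counts, and again the scale mattered. Il6st had 123 and 182 counts with DMSO and 137 and 109 with dTAG13 (log2 change -0.07, interval -0.65 to 0.52), but 0.59 and 0.72 against 1.18 and 1.07 TPM. Its effective length went from 6451 and 7500 bases to 3576 and 3909, and the change with the length offset was 0.83 (adjusted p = 0.026). Lifr went from 1.84 and 1.82 to 1.28 and 0.95 TPM, with a log2 change of -0.23 (interval -0.85 to 0.39) by counts and -0.66 with the length offset (adjusted p = 0.041).

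**Figure D2:**
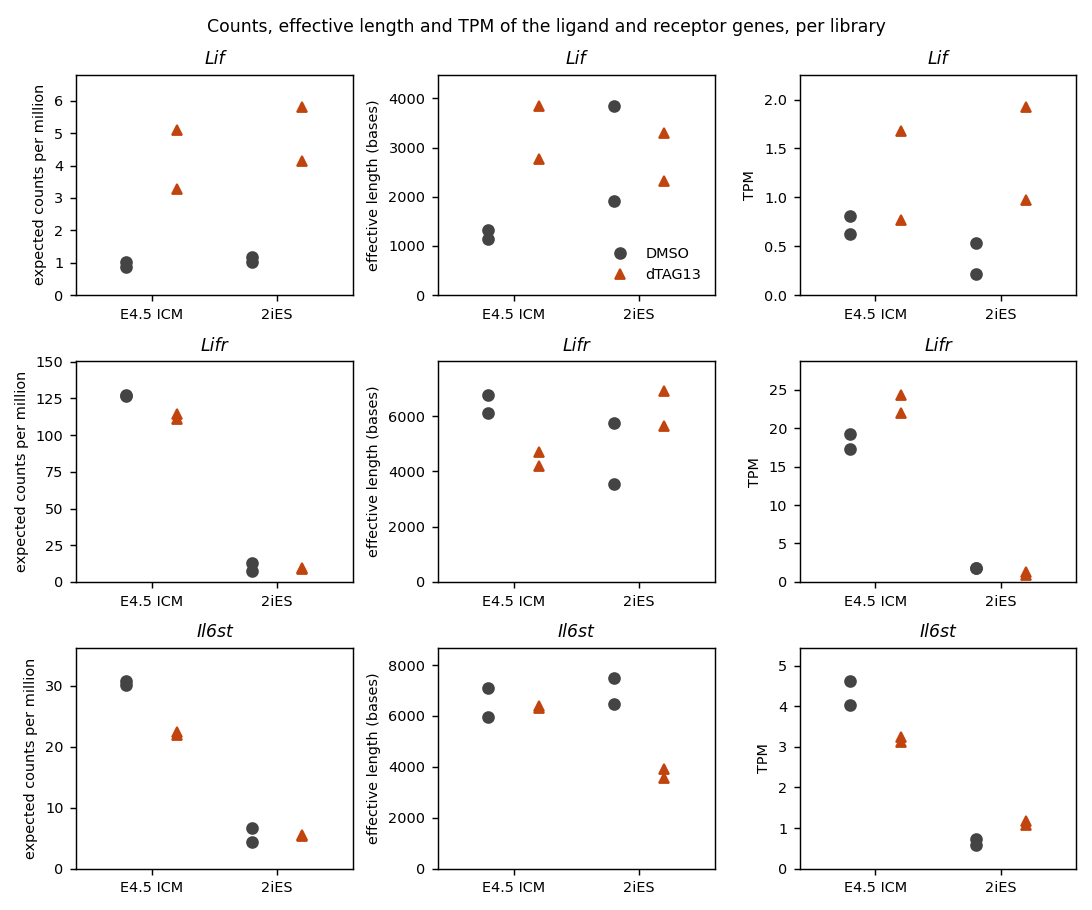
Expected counts scaled to the library total (CPM), effective length in bases and TPM (columns, linear axes from 0) of Lif, Lifr and Il6st (rows) in each E4.5 ICM and 2iES library, with DMSO as circles and dTAG13 as triangles. In the ICM, Lifr has fewer counts and a shorter length but a higher TPM with dTAG13, and in 2iES cells Il6st drops from 6451 and 7500 bases to 3576 and 3909.

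In 2iES cells, Jak1 went from 15.90 and 11.63 to 17.64 and 14.60 TPM. TPM overlapped and counts scaled to the library total did not, with a log2 change of 0.58 ± 0.14 (adjusted p = 0.01) that was 0.29 with the length offset (adjusted p = 0.24). Pim3 fell on both scales, from 10.03 and 7.76 to 5.51 and 4.81 TPM (log2 change -0.87 ± 0.17, adjusted p = 0.0059). Stat3 (interval -0.26 to 0.45), Socs3 (-0.06 to 1.09) and Pim1 (-0.92 to 0.15) did not pass. Leaving out dTAG13 replicate 1, or dTAG13 replicate 2, left Lif alone past the test (1 of 8).

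**Figure D3:**
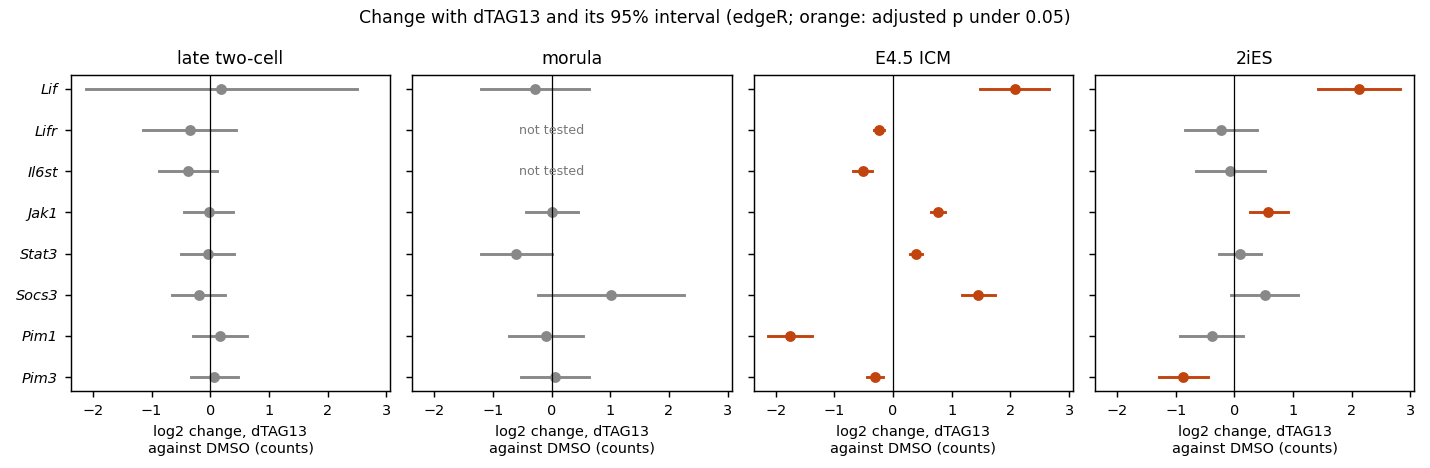
Log2 change in counts with dTAG13 (horizontal axis) of each gene with its 95% interval from edgeR, 1 panel per stage, orange where the adjusted p is under 0.05. All 8 points are orange in the E4.5 ICM, 3 in 2iES cells and none in the earlier stages, where the interval of Lif is widest at the late two-cell stage.

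Whether the dTAG13 effect itself differed between stages was tested in 1 fit of all 18 libraries. Between the ICM and 2iES cells, 1 of the 8 genes differed (background 17.4%). The effect on Pim1 was lower in the ICM by 1.41 on the log2 scale (adjusted p = 0.03), and in 7 of the 8 fits that left out 1 ICM or 2iES library it did not pass (adjusted p up to 0.15). With the length offset it was -1.11 (adjusted p = 0.12). For Lif, the difference was -0.09 by counts with an interval of -2.17 to 2.00, too wide to show that the effects were alike, and -1.39 with the length offset (adjusted p = 0.44). For Socs3, the difference was 0.89 (interval 0.01 to 1.76, adjusted p = 0.16). Between the late two-cell stage and the ICM, 3 of 8 differed (background 20.3%). The difference, late two-cell minus ICM, was -1.68 for Socs3 (adjusted p = 0.0041), 1.90 for Pim1 (adjusted p = 0.0019) and -0.82 for Jak1 (adjusted p = 0.02). Without late two-cell dTAG13 replicate 1, the difference for Jak1 was -0.61 (adjusted p = 0.063), while Socs3 (adjusted p = 0.011) and Pim1 (adjusted p = 0.0034) passed. Jak1 also failed to pass without late two-cell DMSO replicate 1 or any 1 of the 4 ICM libraries (adjusted p from 0.058 to 0.16).

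The other genes of the pathway were read from lists of 57 genes. In the ICM, Jak3 fell from 4.70 and 4.72 to 0.70 and 0.77 TPM (log2 change -2.73, adjusted p = 2.8e-19) and Jak2 rose (1.58, adjusted p = 3.2e-11), 1 called in each direction among the 3 other Janus kinases. Over all genes tested, 25.3% were called in the ICM and 28% in 2iES cells. The calls among the Janus kinases and the other STAT genes are read against those shares. Of the 6 other STAT genes, Stat6, the transducer of interleukin 4 signals, fell by 5.90 on the log2 scale, from 5.45 and 6.64 to 0.07 and 0.10 TPM, Stat4 fell by 1.78 and Stat2 rose by 1.37. In 2iES cells, Stat6 fell by 2.50 (adjusted p = 1.3e-04) and Jak3 by 1.64 (adjusted p = 0.0058). Jak2, at 55.35 to 71.58 TPM, exceeded Jak1 per length in late two-cell controls.

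Of 14 inhibitors of cytokine signalling, 4 rose and 8 fell in the ICM by adjusted p, and 4 rose and 3 fell in 2iES cells. Over all genes tested, 38.4% rose and 38.5% fell in the ICM and 26.5% and 28.1% in 2iES cells, and the counts of this list and of the lists after it are read against those shares. Called genes were Ptpn6, a phosphatase that acts on cytokine receptors, which fell by 2.69 in the ICM and 2.33 in 2iES cells, Socs2, which fell by 1.10 in the ICM, and Ptpn1 (-1.86), Socs4 (1.18) and Pias1 (1.01) in 2iES cells. The list's median log2 change was -0.36 in the ICM and 0.15 in 2iES cells, against 0.01 and 0.03 over all genes. Of the 6 genes that link the receptor to ERK, 4 rose and 0 fell in the ICM and 1 rose in 2iES cells, none of them called (25.3% of all genes were in the ICM and 28% in 2iES cells).

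Of the 15 STAT3 targets outside the 8 genes, 3 rose and 9 fell in the ICM (38.4% and 38.5% of all genes), with a median of -0.41 against 0.01 over all genes. The 4 of 15 called (25.3% of all genes were) were Cebpb (3.38, adjusted p = 2.0e-18), Myc (-1.43, adjusted p = 2.4e-24), Pim2 (-1.33, adjusted p = 2.1e-18) and Junb (-1.22, adjusted p = 4.4e-17). In 2iES cells, 5 rose and 6 fell (26.5% and 28.1% of all genes), with a median of 0.01 against 0.03. Against 28% of all genes, 9 of 15 were called, and the 3 largest in each direction were Fos (2.35, adjusted p = 3.3e-04), Cebpb (1.89, adjusted p = 0.0022) and Mcl1 (1.38, adjusted p = 1.5e-04), and Bcl3 (-2.28, adjusted p = 5.8e-04), Pim2 (-1.63, adjusted p = 0.0026) and Myc (-1.62, adjusted p = 0.0012), and 3 more were called lower. Targets moved both ways at both stages. Klf4, a naive pluripotency factor, was not called but fell by 0.85 in the ICM (adjusted p = 3.9e-20) and rose by 0.48 in 2iES cells (adjusted p = 0.033). Tfcp2l1, another such factor, fell by 0.41 in the ICM (adjusted p = 3.1e-12) and had a log2 change of 0.01 in 2iES cells (adjusted p = 0.94). Both were named after their values were seen.

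Among the 8 other ligands that use gp130, Il6 rose in the ICM from 0.93 and 1.38 to 2.13 and 3.12 TPM (log2 change 1.17, adjusted p = 6.2e-04) and Ctf1 fell in 2iES cells (-1.50, adjusted p = 0.0055). Of the 5 other receptor genes, Il11ra1 was called in 2iES cells (-1.30, adjusted p = 0.046) and none in the ICM. Osm, Cntf and Cntfr were listed at 0 counts in both dTAG13 libraries of the ICM and at 14 to 19 with DMSO, so their fitted changes depend on the prior count and are no estimate. In late two-cell embryos, with dTAG13 replicate 1 included, 1 gene of these lists was called (4.11% of all genes were). It was Stat5a, at 1.27 to 1.56 TPM with DMSO and 0.12 to 0.30 with dTAG13 (log2 change -2.60, adjusted p = 0.0027). In morulae none was called by edgeR (0.351% of all genes were). There 4 had an unadjusted p under 0.05, where 1854 of all 13667 genes tested did.

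**Figure D4:**
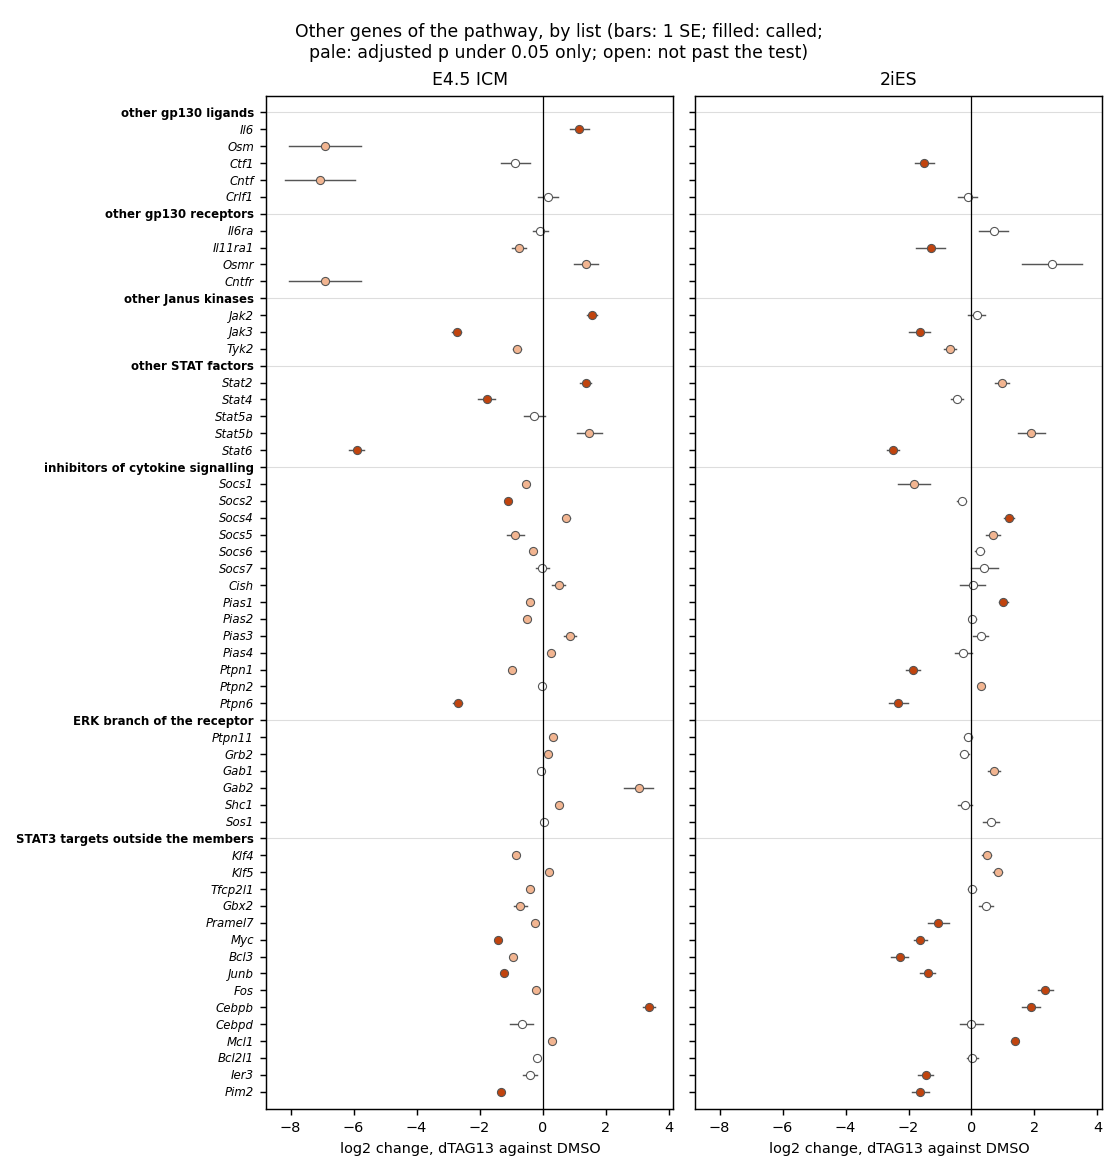
Log2 change in counts with dTAG13 (horizontal axis, bars of 1 SE) of the tested genes of the 7 other pathway lists, 1 gene left out, in the E4.5 ICM (left) and 2iES cells (right), filled where called, pale where only the adjusted p is under 0.05 and open otherwise. Stat6, Jak3 and Ptpn6 lie left of 0 in both panels and Cebpb right of 0 in both, and the 3 ICM points near -7 (Osm, Cntf, Cntfr) are genes at 0 counts with dTAG13.

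Over the 8 group means (4 stages by 2 treatments, log2 of mean TPM + 1, 12025 or 12026 genes searched, each with at least 5 TPM in some group), the genes most like each member were found by Pearson's r, as a description. They were Zfp729a, Iqgap1 and Mapkapk3 for Lif (r of 0.969 to 0.981), Maged1, Gorasp2 and F2r for Lifr (0.989 to 0.996), and Chuk, Ccnd2 and Gmds for Il6st (0.967 to 0.982). They were Tmem59l, Rpl30-ps10 and Gm25869 for Jak1 (0.944 to 0.959), Meis1, Creb3l2 and Arf3 for Stat3 (0.991 to 0.994), and Zfp871, Cnot1 and Ccser2 for Socs3 (0.983 to 0.995). For Pim1 they were Lst1, Ttc1 and Gm34680 (0.979 to 0.990) and for Pim3 Edem2, Iars and Brms1 (0.984 to 0.986). None of the 8 genes was among the 3 most like another, but Lif and Il6st, with a mean under 5 TPM in every group, could not be found. Between pairs of the 8 genes, r ran from -0.88 (Jak1 and Pim1) to 0.92 (Lifr and Stat3). The DMSO and dTAG13 points of a stage share that stage and its preparation.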

How the data were processed

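RNA was amplified with a SMART-Seq v4 kit and made into Nextera XT libraries, which keep no strand. Trimmomatic 0.39 trimmed the reads, STAR aligned them to GRCm38 and RSEM estimated gene levels. The authors deposited, for each library, RSEM expected counts per gene, not normalised, with TPM, FPKM and an effective length. The deposited TPM and FPKM are scaled to effective length and library total and entered no test. Genes were named from GENCODE M21 (55144 of 55385 identifiers matched).

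Expected counts were rounded and tested by edgeR 4.0.16 in R 4.3.3 (quasi-likelihood test, TMM scaling, genes with 10 counts or more in a number of libraries equal to the smaller group), with Benjamini-Hochberg adjustment over all genes tested. dTAG13 was compared with DMSO within each stage, control stages in 1 fit of the 9 DMSO libraries, and stage differences of the effect in 1 fit of all 18. Called means an adjusted p under 0.05, a fold of 2 or more and, in either group, a mean FPKM of 1 or more. Intervals are 95%. The tests were tried on simulated counts of a fixed spread, with changes put only in genes with many counts. That trial does not cover the small spread of the ICM or genes with few counts, such as Lif. Alternatives were DESeq2 1.42.0, other scalings and filters, a replicate block, TPM ratios, leaving out each library and, chosen after seeing the data, the effective length as an offset and a crossed block.

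The 8 genes and all lists were chosen with earlier results of these data known. Genes named from the lists are those called, at most 3 in each direction per list and stage, with the 3 genes most like each of the 8 by Pearson's r. Only RNA files were used here, and 1 gene of the lists is counted but not reported here.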

Additional observations from a re-analysis of the deposited data

Results flagged for a closer look

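The effect of dTAG13 differed between stages for 3 of the 8 genes, by a test of the difference itself in edgeR. Between the E4.5 ICM and 2iES cells, the log2 effect on Pim1 differed by -1.41 (adjusted p = 0.03), with -1.76 in the ICM and -0.39 in 2iES cells when each was fitted alone, where 17.4% of all genes differed. It did not pass in 7 of the 8 fits that left out 1 library, nor with the effective length as an offset (adjusted p = 0.12). Between the late two-cell stage and the ICM, the effect on Jak1 differed by -0.82 (adjusted p = 0.02), that on Socs3 by -1.68 (adjusted p = 0.0041) and that on Pim1 by 1.90 (adjusted p = 0.0019), where 20.3% of all genes differed. The Jak1 difference did not pass in 6 of the 10 fits that left out 1 library, nor with the replicate block (adjusted p = 0.055). Dose was the same in both embryo stages, but the length of treatment and the markers of other cell types differed, and their part was not tested.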

How the results depend on the processing

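The number of the 8 genes past the test was within 1.5 times the reported number in 70 of 76 other settings and in 40 of 49 fits that left out a library. It was 4 in the E4.5 ICM with all 18 libraries in 1 fit. Counting only called genes it was 3 in the ICM, 1 in 2iES cells and 4 from late two-cell to morula. For the difference between ICM and 2iES it was 3 with only those stages fitted and 0 with the effective length as an offset. Leaving out 1 library gave 1 to 4 in 2iES cells and 0 to 1 for the ICM and 2iES difference.

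Of 594 single values under other settings, 534 kept direction and side of the threshold, 37 turned, 14 were no longer past the threshold and 9 newly passed it. With the effective length as an offset, those that turned were Lifr 0.22, Stat3 0.13 and Pim3 -0.02 at the late two-cell stage, Lif 0.47 in morulae, Lifr 0.29 in the ICM, Il6st 0.83 in 2iES cells, Pim1 0.07 into the morula, Lif -0.44 from ICM to 2iES, Lifr 0.89 for the ICM and 2iES difference and Il6st -0.11 for the late two-cell and ICM difference. As ratios of mean TPM with a pseudocount of 1 and of 0.1, which have no test, they were Lifr 0.12 and 0.24 and Stat3 0.13 and 0.17 (late two-cell), Lif 0.25 and 0.42 and Jak1 -0.02 in both (morula), Lifr 0.33 and 0.34 (ICM) and Il6st 0.36 and 0.70 (2iES). With library totals they were Jak1 0.05 and Stat3 0.03 (late two-cell), Jak1 -0.06 and Pim3 -0.02 (morula) and Lifr 0.02 (ICM and 2iES difference). With upper-quartile scaling they were Jak1 0.09 and Stat3 0.08 (late two-cell), Il6st 0.12 (2iES), Pim1 0.11 (into the morula) and Socs3 0.12 (ICM to 2iES). With all 18 libraries they were Jak1 0.06 and Stat3 0.05 (late two-cell), and with no count filter Socs3 0.03 (ICM to 2iES) and Lif 0.01 and Lifr 0.05 (ICM and 2iES difference). Apart from the offset values of Lifr in the ICM and Il6st in 2iES cells, which passed the test, none of these did. The cause was not tested.

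Leaving out 1 library turned 28 of 381 values, left 25 no longer past the threshold and brought 2 newly past it. The ranges at the late two-cell stage were Lif -0.38 to 0.57, Jak1 -0.13 to 0.12, Stat3 -0.14 to 0.05, Pim1 -0.01 to 0.32 and Pim3 -0.03 to 0.19. In morulae they were Jak1 -0.05 to 0.10, Pim1 -0.48 to 0.42 and Pim3 -0.07 to 0.17, and in 2iES cells Lifr -0.58 to 0.14 and Il6st -0.35 to 0.20. They were -0.54 to 0.33 for Pim1 into the morula, -0.08 to 0.07 for Socs3 from ICM to 2iES, -0.39 to 0.24 for Lif and -0.47 to 0.28 for Lifr in the ICM and 2iES difference, and -0.25 to 0.17 for Lifr in the late two-cell and ICM difference. A lone library left in a group is assumed to vary like the others.

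Same-numbered libraries shared only a number (correlations of deviations from -0.125 to 0.051). With the replicate block the numbers were 0, 0, 8 and 3 for dTAG13 in stage order, 6, 7 and 4 for the control steps, and 1 and 2 for the differences. Pim3 into the morula (adjusted p = 0.092) and the Jak1 difference (adjusted p = 0.055) were not past the test with it. The crossed block, chosen after seeing the data, gave 3 in 2iES cells. Scaling moved the split of all genes. Among late two-cell calls 15.4% were higher, against 25.2% by DESeq2, 25.6% with library totals and 33.5% with upper-quartile scaling. In morulae 44% became 31.2% with library totals, in 2iES cells 48.6% became 58.6% with upper-quartile scaling (median of all genes from 0.03 to 0.21), from morula to ICM 53.9% became 43.2% with upper-quartile scaling, and from ICM to 2iES 51.3% became 29.8% with library totals (median from 0.00 to -0.33). Depth limits Lif most, with 0 to 18 counts a late two-cell library.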
